A study of Rattus norvegicus with 20 samples.

Results

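Immunophilins are the intracellular receptors of the calcineurin inhibitors, and 10 of their genes were followed here in rat kidney. They were 5 cyclophilins (Ppia, Ppib, Ppic, Ppid and Ppif) and 5 FK506-binding proteins (Fkbp1a, Fkbp2, Fkbp4, Fkbp5 and Fkbp8), chosen by symbol and carried between the tables by gene identifier, out of 32907 genes listed in either table. All 10 passed the filter on low values in both tables. Wild-type male Wistar rats aged 10 to 12 weeks received drug or vehicle from a subcutaneous osmotic minipump for 28 days, and RNA of the whole kidney was sequenced. The groups were saline vehicle (n = 4), cyclosporine A in rats set against that vehicle (n = 4, with a target trough in plasma that the labels give as 3 mg/ml), a vehicle of 25% DMSO and 75% PEG500 (DMSO/PEG vehicle, n = 6), and tacrolimus set against that vehicle (n = 6, target trough 3.5 ng/ml). The comparisons ask how each calcineurin inhibitor, both known to be toxic to the kidney, changes expression there.

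Immunophilins are peptidyl-prolyl isomerases, enzymes that turn the peptide bond before a proline. Cyclosporine A binds cyclophilins and tacrolimus (FK506) binds FK506-binding proteins, and in each case it is the complex of drug and immunophilin that inhibits the phosphatase calcineurin. Cyclophilin A (Ppia) and FKBP12 (Fkbp1a) are the main cytosolic partners, while the other members fold secreted proteins in the endoplasmic reticulum (ER), assist Hsp90 with steroid receptors, or sit in mitochondria. The proteins are the drug targets, and only their mRNA was measured here.

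The values are FPKM, fragments per unit of gene length and of library depth. Per library, 30468799 to 34308987 fragments were assigned to genes in the saline and cyclosporine A kidneys and 31670202 to 39358485 in the DMSO/PEG and tacrolimus kidneys. Mitochondrially encoded genes took 49.7% to 68.6% of them with saline vehicle, 80.2% to 90.8% with cyclosporine A, and 10.5% to 15.9% in the tacrolimus table. Fragments from nuclear genes therefore numbered 10283990 to 17256836 per library with saline vehicle and 2905876 to 6549317 with cyclosporine A, the fewest of any group. Counting error for nuclear genes was therefore largest there, although the spread between libraries was not always so: the coefficient of variation of Ppia was 3.65% with cyclosporine A and 9.50% with DMSO/PEG vehicle. Because the deposited cyclosporine A table is scaled to all fragments, its values were also rescaled so that the median nuclear gene is level between libraries (rescaled FPKM), and both versions are given. Marker genes of kidney tubules were abundant in every group (4 thick ascending limb markers summed to at least 149 rescaled FPKM with cyclosporine A, the lowest of the groups), and 4 liver markers summed to at most 1.75. The labels do not tie libraries to litters or processing days, so p-values measure the spread between these libraries. Whole-kidney RNA cannot tell fewer cells of a type from less RNA per cell.

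Cyclophilin A was the most abundant immunophilin mRNA in every group. In the saline kidneys Ppia averaged 412 rescaled FPKM, 3.11 times the next gene, Ppic (133 rescaled FPKM), which encodes the secretory-pathway cyclophilin C. Ppib (56.8), Fkbp2 (53.7) and Fkbp8 (45.9 rescaled FPKM) followed, and neighbours in that run overlapped in range. Fkbp1a (20.2), Fkbp4 (15.8) and Ppid (14.8 rescaled FPKM) formed a lower run whose neighbours also overlapped. Ppif (6.45) and Fkbp5 (2.40 rescaled FPKM) were lowest, each separated from the gene above it. The order by mean was identical with cyclosporine A, although the ranges of Ppic and Ppib, and of Ppif and Fkbp5, then overlapped. Levels are per length. For Ppia in the cyclosporine A table the length behind the values was 623 bases rather than the 779 listed, and for the other 9 members it was the listed length.

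In the DMSO/PEG kidneys Ppia averaged 1007 FPKM, 5.75 times Ppic (175 FPKM). Ppib (167), Fkbp8 (119.7), Fkbp2 (89.2), Fkbp1a (78.2), Fkbp4 (65.6), Fkbp5 (40.1), Ppid (34.0) and Ppif (28.9 FPKM) followed, and each overlapped in range with the next. With tacrolimus the first 4 genes kept that order by mean, and Ppid became the lowest at 27.2 FPKM. The tables were normalized separately, so a level in one is not on the scale of the other. The deposited genome positions, on rn6 per the submitters' processing notes, place Ppia at chr14:86673775-86677443 (plus strand), Fkbp1a at chr3:147042944-147062724 (plus strand), Ppid at chr2:178354890-178366685 (plus strand) and Fkbp5 at chr20:7976713-8019020 (minus strand). No other listed gene overlapped any of the 10 members on either strand.

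**Figure D1:**
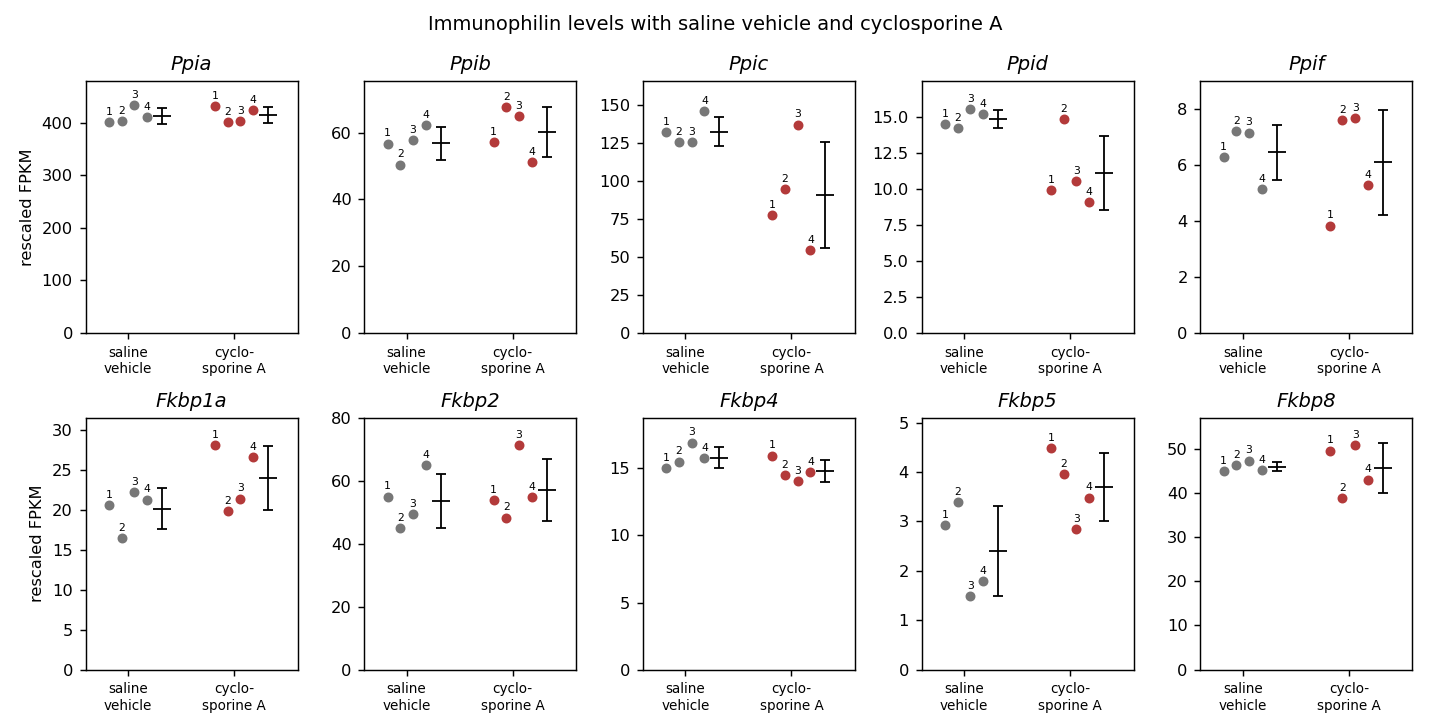
Rescaled FPKM of the 10 immunophilins in each library, with saline vehicle (grey) and cyclosporine A (red); small numbers are replicates, and the bar beside each group is its mean ± SD (n = 4). Ppia lies between 401 and 434 in all 8 libraries. For Ppic, Ppid and Fkbp4, 3 of 4 cyclosporine A libraries lie below the vehicle range, and for Fkbp5 3 of 4 lie above it.

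Once libraries were brought to a common median, none of the 10 immunophilins passed the test for a change with cyclosporine A. Among the cyclophilins, which bind the drug, the mean of Ppia was within 1 SD of vehicle, Ppic and Ppid had lower means, and Ppib and Ppif had means within 1 SD of vehicle. Of all 13455 genes tested, 0.609% were called changed by limma at an adjusted p under 0.05 (0.327% higher and 0.282% lower), against 0 of 10 members. At an unadjusted p under 0.05 there were 3 members (Ppic, Ppid and Fkbp5), against 16.2% of all genes. Limma with voom on the recovered fragments likewise called 0 members and had 3 at an unadjusted p under 0.05. For 0 members did the groups fail to overlap, against 10.9% of all genes. The median log2 fold change was -0.01 over the 10 members and 0.00 over all genes.

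Ppia was 402, 403, 434 and 409.9 rescaled FPKM in the saline libraries and 431, 401, 403 and 424 with cyclosporine A. The groups covered the same range, and the log2 fold change was 0.01 (SE 0.10, 95% interval -0.21 to 0.22, limma adjusted p = 0.976). Ppia was among the steadiest genes on this scale: over the 8 libraries the SD of its log2 rescaled FPKM was 0.05, and 26 of 13455 tested genes had a smaller one. None of the 14 tested PCR reference genes did, whose SDs ran from 0.10 to 0.78. On the deposited scale the SD of Ppia was 0.77, and 5 of 14 reference genes had a smaller one. In the tacrolimus table it was 0.11 over 12 libraries, and 4 of 16 reference entries and 3666 of 15493 tested genes had a smaller one. Fragments of Ppia may be shared with near-identical copies. A listed copy is named LOC100360977 in the cyclosporine A table and Ppial4d in the other. It averaged 16.2 rescaled FPKM in the cyclosporine A table and 56.1 FPKM in the tacrolimus table.

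Ppid encodes cyclophilin 40, a co-chaperone that binds Hsp90 in steroid receptor complexes. It was 14.5, 14.2, 15.5 and 15.2 rescaled FPKM with saline and 9.92, 14.8, 10.5 and 9.05 with cyclosporine A. Replicates 1, 3 and 4 of the drug group lay below every vehicle library, while replicate 2 lay inside their range. The log2 fold change was -0.41 (SE 0.14, 95% interval -0.73 to -0.09), all 4 drug libraries were under the vehicle mean, and the call failed (unadjusted p = 0.0161, limma adjusted p = 0.196). Without cyclosporine A replicate 2 it was -0.55 (adjusted p = 0.0568), the lowest adjusted p among the alternatives. These values rest on 135 to 445 Ppid fragments per drug library and 647 to 1100 per vehicle library. The order of the drug libraries by Ppid, from replicate 2 to 3, 1 and 4, was also their order by mitochondrial share (80.2%, 82.0%, 85.6% and 90.8%). The saline libraries did not keep that order: replicate 1, with the lowest share (49.7%), had less Ppid than replicates 3 and 4 (62.6% and 58.1%). The share did not overlap between drug and vehicle, so the 2 cannot be told apart, and its part in the Ppid values was not tested. With it as a covariate the fold change was -0.08 with an SE of 0.35, and 0 of all genes were called.

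Ppic was 132, 126, 126 and 146 rescaled FPKM with saline and 77.4, 94.8, 137 and 54.4 with cyclosporine A. The drug libraries were spread over a wider range than the vehicle libraries, and replicate 3 of the drug group lay inside the vehicle range. The log2 fold change was -0.61 (SE 0.23, 95% interval -1.13 to -0.09, unadjusted p = 0.0251, limma adjusted p = 0.234). It was -0.84 without cyclosporine A replicate 3, -0.40 without replicate 4, and 0.13 (SE 0.52) with the mitochondrial share as a covariate.

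The other 2 cyclophilins had log2 fold changes of 0.08 and -0.10 on rescaled FPKM. Ppib encodes cyclophilin B, the ER isomerase that acts on collagen and other secreted proteins; it ranged from 50.4 to 62.3 rescaled FPKM with saline and 51.2 to 67.7 with cyclosporine A (log2 fold change 0.08, 95% interval -0.18 to 0.34). Leaving out 1 library at a time gave 0.02 (without cyclosporine A replicate 2) to 0.15 (without replicate 4), and with the mitochondrial share as a covariate it was 0.48 (SE 0.26, unadjusted p = 0.0948, limma adjusted p = 1.00). Ppif encodes cyclophilin D of the mitochondrial matrix, a regulator of the permeability transition pore. It ranged from 5.15 to 7.23 with saline and from 3.84 to 7.68 with cyclosporine A (-0.10, 95% interval -0.55 to 0.35). Neither passed the test.

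Among the FK506-binding proteins, which cyclosporine A does not bind, Fkbp5 had the largest difference. Fkbp5 encodes FKBP51, an Hsp90 co-chaperone that lowers the hormone affinity of the glucocorticoid receptor and is itself induced by glucocorticoids. It was 2.92, 3.39, 1.48 and 1.79 rescaled FPKM with saline and 4.48, 3.96, 2.85 and 3.48 with cyclosporine A. All 4 drug libraries were above the vehicle mean and 3 above the whole vehicle range. The log2 fold change was 0.49 (SE 0.21, 95% interval 0.04 to 0.95, unadjusted p = 0.0371, limma adjusted p = 0.272), from 158 to 362 fragments per drug library. At this low level the added 1 of log2(FPKM + 1) understates the change, and with 0.1 in its place it was 0.66 (adjusted p = 0.275). With the added 1, leaving out 1 library gave 0.36 without saline replicate 3 (limma unadjusted p = 0.111). It gave 0.63 without saline replicate 2 (limma unadjusted p = 0.0128), the other end of the range. The change was 0.44 (SE 0.52) with the mitochondrial share as a covariate.

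Fkbp1a, the FKBP12 gene, was 20.6, 16.5, 22.3 and 21.3 rescaled FPKM with saline and 28.1, 19.8, 21.4 and 26.6 with cyclosporine A. Replicates 1 and 4 of the drug group were above every vehicle library and the other pair lay among them (log2 fold change 0.23, 95% interval -0.08 to 0.55, limma adjusted p = 0.449). Without saline replicate 2 it was 0.15 (adjusted p = 0.733). Fkbp4, the FKBP52 co-chaperone that raises receptor activity, averaged 15.8 ± 0.804 rescaled FPKM with saline and 14.8 ± 0.810 with the drug (SD, n = 4). For Fkbp4, 3 of 4 drug libraries lay below every vehicle library (log2 fold change -0.09, 95% interval -0.29 to 0.12). Fkbp8, the membrane-anchored FKBP38 of mitochondria, ranged from 44.9 to 47.3 and from 38.9 to 50.8 (-0.02, 95% interval -0.26 to 0.22). Fkbp2, the ER-resident FKBP13, ranged from 45.0 to 65.1 and from 48.4 to 71.5 (0.09, 95% interval -0.24 to 0.42). It was -0.02 without cyclosporine A replicate 3, 0.18 without saline replicate 4, and 0.43 (SE 0.36) with the mitochondrial share as a covariate.

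The scale decides the count. On deposited FPKM, limma called 9 of 10 immunophilins lower with cyclosporine A, all but Fkbp5. Most genes of the table were lower too: 80.9% were called lower, 81.1% in either direction, and the median log2 fold change was -0.89 over all genes and -1.28 over the members. Ppia was 799, 504, 655 and 696 deposited FPKM with saline and 267, 327, 297 and 179 with cyclosporine A. The groups did not overlap for 9 members, against 68.0% of all genes, and the same 9 were at an unadjusted p under 0.05, against 82.6%. With the mitochondrial share as a covariate 0 of the members and 0 of all genes were called; the share did not overlap between the groups, so that fit cannot tell drug and share apart. Relative to the median gene, the deposited changes ran from -1.04 for Ppic to 0.41 for Fkbp5.

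**Figure D2:**
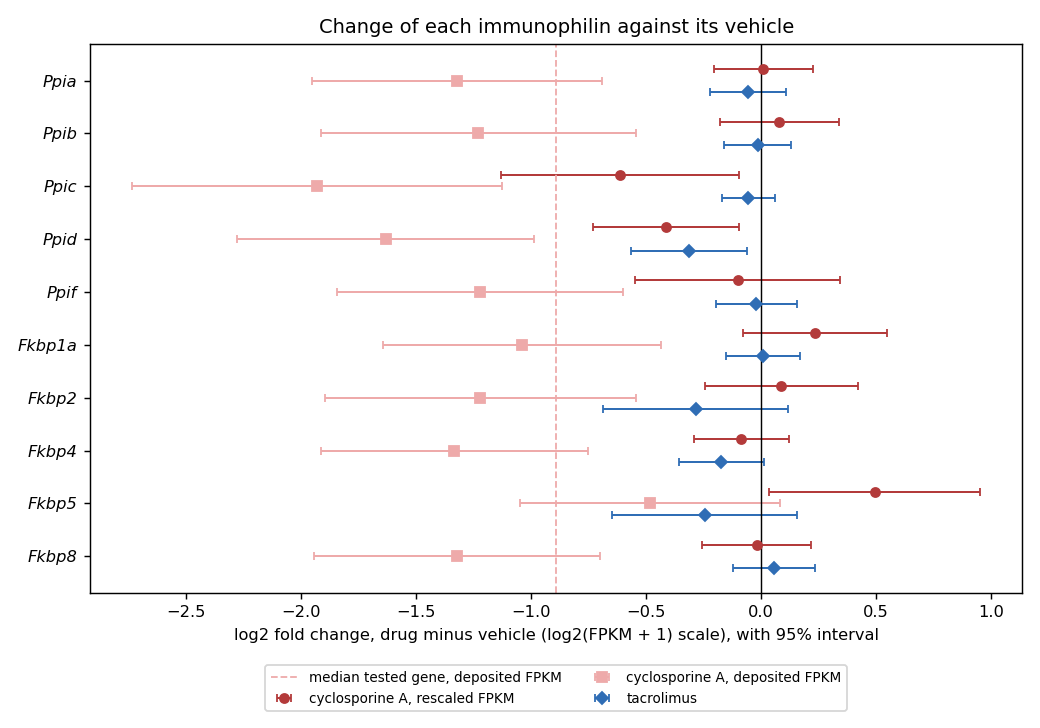
Log2 fold change of each immunophilin (points) with its 95% interval (bars) for cyclosporine A on rescaled and on deposited FPKM and for tacrolimus; the dashed line is the median tested gene on deposited FPKM, -0.89. On rescaled FPKM the intervals of Ppic, Ppid and Fkbp5 exclude 0 before adjustment, with tacrolimus that of Ppid alone does, and none passed after adjustment.

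None of the 10 immunophilins passed the test for a change with tacrolimus. The mRNA of FKBP12, the protein through which tacrolimus inhibits calcineurin, had a mean within 1 SD of vehicle, and Ppid had the largest difference. Limma called 0 of 10 members, against 0.303% of 15493 genes tested (0.0194% higher and 0.284% lower). At an unadjusted p under 0.05 there was 1 member (Ppid), against 8.58% of all genes, and limma with voom also called 0 with 1 unadjusted. The groups failed to overlap for 0 members, against 0.975% of all genes. The median log2 fold change was -0.06 over the members and 0.00 over all genes.

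**Figure D3:**
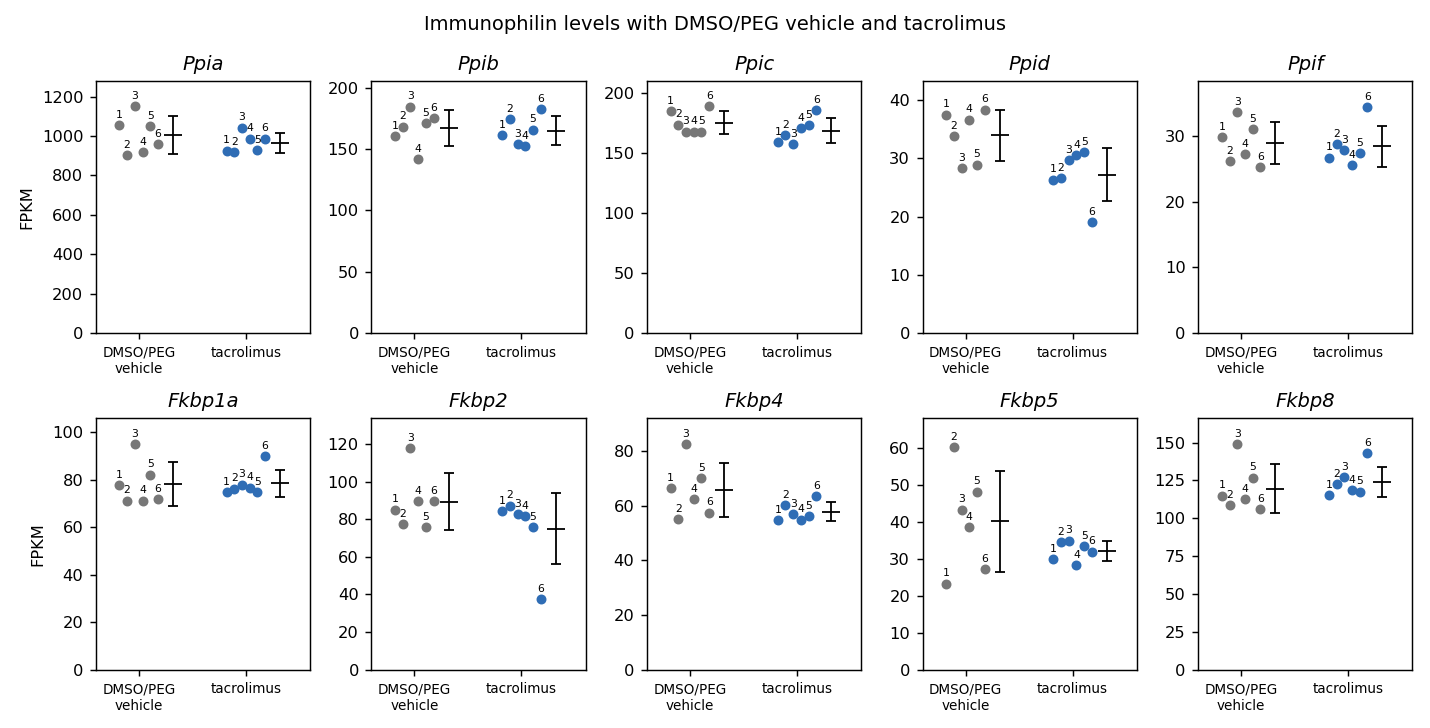
FPKM of the 10 immunophilins in each library, with DMSO/PEG vehicle (grey) and tacrolimus (blue); small numbers are replicates, and the bar beside each group is its mean ± SD (n = 6). For Ppid all 6 tacrolimus libraries lie below the vehicle mean, and for Fkbp5 the vehicle libraries spread from 23.3 to 60.0 around a narrow tacrolimus range.

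Fkbp1a had a lowest value of 71.2, a median of 74.8 and a highest value of 95.2 FPKM with DMSO/PEG vehicle, and 74.8, 76.5 and 90.0 with tacrolimus. The tacrolimus libraries lay within the vehicle range. The log2 fold change was 0.01 (SE 0.08, 95% interval -0.15 to 0.17, limma adjusted p = 0.988), an interval that spans a fold of 0.899 to 1.13. Fkbp8 ranged from 106 to 149 FPKM with vehicle and 115 to 143 with tacrolimus (0.06, 95% interval -0.12 to 0.24).

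Fkbp5 had a lowest value of 23.3, a median of 40.9 and a highest value of 60.0 FPKM with vehicle, and 28.2, 32.7 and 34.9 with tacrolimus. Every tacrolimus library was below the vehicle mean and inside the vehicle range. The log2 fold change was -0.24 (SE 0.19, 95% interval -0.65 to 0.16, limma adjusted p = 0.796). It was -0.12 without vehicle replicate 2 and -0.38 without vehicle replicate 1 (adjusted p = 0.936 and 0.600). The vehicle SD of 13.6 FPKM was set against 2.64 with tacrolimus, and this difference in spread was not tested. Fkbp4 ran from 55.1 through a median of 64.4 to 82.3 FPKM with vehicle and from 54.6 through 56.5 to 63.5 with tacrolimus. All 6 tacrolimus libraries were under the vehicle mean (-0.17, 95% interval -0.36 to 0.01, adjusted p = 0.625), and the fold change was -0.11 without vehicle replicate 3 (adjusted p = 0.580). Fkbp2 ran from 75.7 through 87.4 to 118 with vehicle and from 37.4 through 82.3 to 87.3 with tacrolimus (-0.28, SE 0.19, adjusted p = 0.743). Its lowest value belonged to tacrolimus replicate 6, and without that library the fold change was -0.10.

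Ppid had a lowest value of 28.4, a median of 35.2 and a highest value of 38.4 FPKM with vehicle, and 19.0, 28.2 and 31.1 with tacrolimus. All 6 tacrolimus libraries were below the vehicle mean, and 3 were below every vehicle library. The log2 fold change was -0.32 (SE 0.12, 95% interval -0.57 to -0.06, unadjusted p = 0.0181, limma adjusted p = 0.429), a fold of 0.804. Ppia ran from 903 through a median of 1005 to 1151 FPKM with vehicle and from 919.8 through 958 to 1043 with tacrolimus (-0.06, 95% interval -0.22 to 0.11). Ppib (142 to 185 FPKM with vehicle, 152 to 182 with tacrolimus), Ppic (168 to 189 and 157 to 186) and Ppif (25.3 to 33.7 and 25.6 to 34.4) overlapped between the groups. Their log2 fold changes were -0.02, -0.06 and -0.02.

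Libraries of the tacrolimus table differed in how many nuclear genes were detected, and Fkbp1a and Ppif were highest in those with the fewest. Tacrolimus replicate 6 (17853 genes) and vehicle replicates 5 (18345) and 3 (18360) had the fewest. These 3 libraries had the 3 highest values of Fkbp1a (82.1 to 95.2 FPKM, against 71.2 to 77.9 in the other 9) and of Ppif (31.1 to 34.4, against 25.3 to 29.8). For Ppid they gave 19.0 to 28.9 FPKM, against 26.4 to 38.4, and for Fkbp2 37.4 to 118, against 75.9 to 89.8. The share of all genes with their highest values in these 3 libraries was not computed. Without them, a comparison chosen after the data were seen, Ppid was 33.8 to 38.4 FPKM in the 4 remaining vehicle libraries and 26.4 to 31.1 in the 5 tacrolimus libraries, so the groups no longer overlapped. Its log2 fold change was then -0.33 (unadjusted p = 0.000361, limma adjusted p = 0.0709), still not a call. Groups failed to overlap for 2 of 10 members in these 9 libraries, Ppid and Fkbp8 (0.12, adjusted p = 0.242), against 6.06% of all genes, and limma called 0 members against 0.382%. Their part in the result beyond these values was not tested.

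Whether a gene responded differently to the 2 drugs was tested by subtracting its tacrolimus change from its cyclosporine A change, on rescaled FPKM. Drug, vehicle and table cannot be told apart in it. It differed for 0 of 10 members, against 1.63% of 13392 genes (0.859% higher), and at an unadjusted p under 0.05 for 2 (Fkbp5 and Ppic), against 16.0%. Fkbp5, above its vehicle mean in 4 of 4 cyclosporine A libraries and below it in 6 of 6 tacrolimus libraries, had a difference of 0.74 (SE 0.28, 95% interval 0.16 to 1.31, unadjusted p = 0.0142, limma-based adjusted p = 0.183). Ppic had a difference of -0.56 (SE 0.24, 95% interval -1.08 to -0.03, adjusted p = 0.284), which was -0.34 without cyclosporine A replicate 4 (adjusted p = 0.400) and -0.78 without replicate 3 (adjusted p = 0.0693). For Ppid, lower on average in both comparisons, it was -0.10 (95% interval -0.48 to 0.29), and it ran from -0.23 without cyclosporine A replicate 2 to -0.02 without replicate 4. With deposited FPKM throughout, 9 members differed, all but Fkbp5, beside 75.2% of all genes, whose median was -0.89.

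Ratios between members within a library are free of scaling. Fkbp5 and Fkbp4 encode co-chaperones that compete for the same site on Hsp90. The Fkbp5 to Fkbp4 ratio was 0.195, 0.219, 0.0876 and 0.114 with saline and 0.281, 0.274, 0.203 and 0.236 with cyclosporine A. All 4 drug libraries lay above the vehicle mean, and replicate 3 of the drug group lay inside the vehicle range. On the log2 scale the difference was 0.78 (exact 2-sided permutation test, p = 0.0571, where 0.0286 is the smallest p that 4 against 4 allow, adjusted p = 0.343 over the 6 ratio tests). Leaving out 1 library at a time gave 0.54 to 0.98 (exact permutation p = 0.0286 to 0.171); the smallest p, which is the smallest that 3 against 4 allow, came without saline replicate 2, the vehicle library that reached above a drug library. With DMSO/PEG vehicle the ratio ran from 0.350 to 1.09 and with tacrolimus from 0.503 to 0.613, and the log2 difference was -0.07 (exact permutation p = 0.749).

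**Figure D4:**
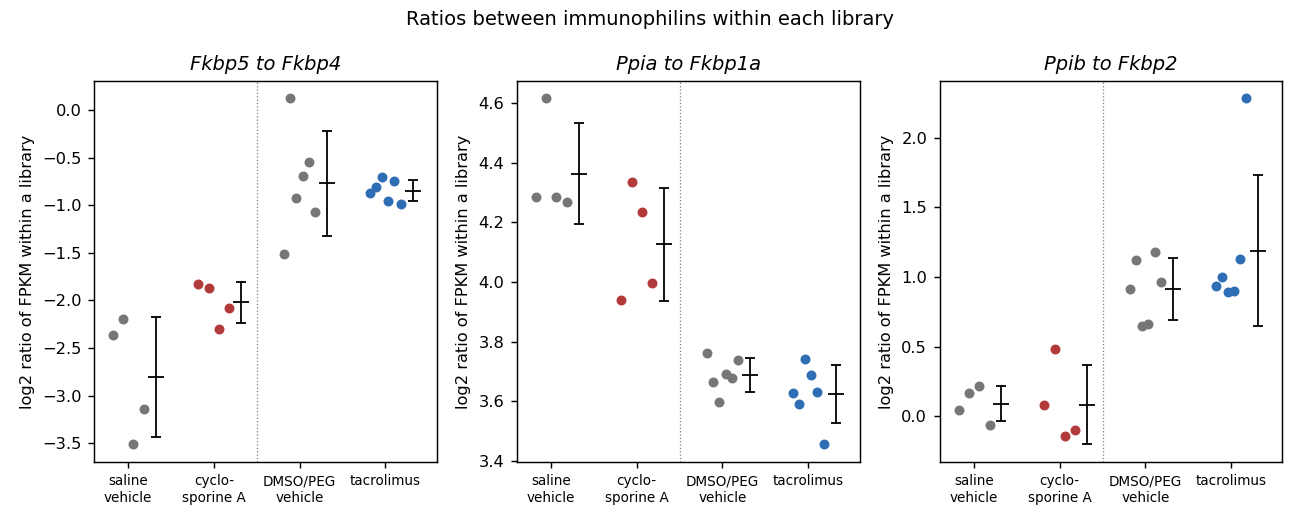
Log2 ratios of FPKM between immunophilin pairs within each library, for Fkbp5 to Fkbp4, Ppia to Fkbp1a and Ppib to Fkbp2, by group with mean ± SD (n = 4, 4, 6 and 6). The dotted line separates the tables; the Fkbp5 to Fkbp4 ratio had a mean of -2.80 with saline vehicle and -2.02 with cyclosporine A, and -0.77 and -0.85 in the tacrolimus table.

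The ratio of the main cytosolic drug receptors, Ppia to Fkbp1a, averaged 20.6 with saline and 17.5 with cyclosporine A (log2 difference -0.24, exact permutation p = 0.2, 4 of 4 drug libraries below the vehicle mean). Leaving out 1 library at a time gave -0.31 to -0.15 (exact permutation p = 0.0286 to 0.4), with the smallest p, which is the smallest that 3 against 4 allow, without cyclosporine A replicate 2. It averaged 12.9 with DMSO/PEG vehicle and 12.3 with tacrolimus (-0.07, exact permutation p = 0.199, 5 of 6 below). The ratio of the ER members, Ppib to Fkbp2, differed by -0.01 with cyclosporine A (exact permutation p = 0.971) and by 0.27 with tacrolimus (exact permutation p = 0.301). That last value was 0.05 without tacrolimus replicate 6.

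On rescaled FPKM and with tacrolimus, further isomerases gave no calls. Of 12 other cyclophilins, among them the spliceosomal ones, 0 were called in either comparison, with medians of 0.11 for cyclosporine A and -0.07 for tacrolimus. In each comparison 1 of them was at an unadjusted p under 0.05, Ppil4 with cyclosporine A (0.47, limma adjusted p = 0.279) and Cwc27 with tacrolimus (-0.19, limma adjusted p = 0.470). Of 10 other FK506-binding proteins tested, 0 were called in either comparison, with medians of 0.14 and -0.03. With cyclosporine A 4 of the 10 were at an unadjusted p under 0.05 (Fkbp1b, Fkbp3, Fkbp9 and Fkbpl), against 16.2% of all genes, and with tacrolimus 0 were. Fkbp9, which had the smallest p of them, was at least 9.72 rescaled FPKM with saline and at most 8.79 with cyclosporine A (-0.38, limma adjusted p = 0.146). Fkbp1b, the close relative of FKBP12 known as FKBP12.6, had the largest change in that list with cyclosporine A at -0.65 (2.58 to 3.16 rescaled FPKM with saline, 0.61 to 3.18 with the drug, adjusted p = 0.244). On deposited FPKM 10 of the 12 other cyclophilins and 7 of the 10 other FK506-binding proteins were called lower with cyclosporine A, beside 80.9% of all genes.

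The partners of the Hsp90-binding members Ppid, Fkbp4, Fkbp5 and Fkbp8 were read next. Of 17 entries of the Hsp90 machinery, 0 were called with cyclosporine A on rescaled FPKM (median -0.11), and Hsp90ab1, the constitutive cytosolic Hsp90, had the largest difference at -0.39 (limma adjusted p = 0.138). With tacrolimus 0 of 18 entries were called (median -0.03). None of the 6 steroid receptor entries was called with cyclosporine A on rescaled FPKM or with tacrolimus; Esr1, the estrogen receptor, was 7.41 to 11.1 rescaled FPKM with saline and 4.12 to 6.07 with cyclosporine A (-0.80, adjusted p = 0.0656). The difference between the drugs was called for Esr1 (-0.79, adjusted p = 0.0461). Nr3c1, the glucocorticoid receptor, has 2 entries, which differed with cyclosporine A by -0.57 (adjusted p = 0.185) and -0.14 (adjusted p = 0.622). On deposited FPKM 16 of 17 Hsp90 machinery entries and 6 of 6 steroid receptor entries were called lower with cyclosporine A, beside 80.9% of all genes.

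Of 18 entries for genes that glucocorticoids induce, as they induce Fkbp5, 1 rose with cyclosporine A on rescaled FPKM, against 0.327% of all genes called higher. At an unadjusted p under 0.05 there were 5, against 16.2% of all genes. Errfi1, a feedback inhibitor of the EGF receptor, went from 6.95 to 8.16 rescaled FPKM with saline to 13.5 to 24.7 with the drug (log2 fold change 1.20, SE 0.18, limma adjusted p = 0.0251). The list had a median of 0.17, with 13 of 18 entries above the median gene. The next smallest p-values belonged to the 2 entries of the metallothionein gene Mt1, which lay lower, at -0.58 (adjusted p = 0.0884) and -0.75 (adjusted p = 0.0967). On deposited FPKM 10 of the 18 entries were called lower and none higher, beside 80.9% of all genes called lower. With tacrolimus 0 of 20 entries were called and the median was -0.09. Pdk4 had the largest difference there at -0.56 (adjusted p = 0.379). The difference between the drugs was called for Errfi1 (1.33, adjusted p = 0.0227).

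Most ER folding partners of cyclophilin B lay below the median gene with either drug, while the mean of Ppib was within 1 SD of vehicle in both comparisons. Of 16 genes, 0 were called with cyclosporine A on rescaled FPKM (9 at an unadjusted p under 0.05, against 16.2% of all genes), the median was -0.34, and 14 lay below the median gene. With tacrolimus 0 were called (5 at an unadjusted p under 0.05, against 8.58%), the median was -0.15, and 14 again lay below the median gene. Sdf2l1, a component of the ER chaperone complex, had the largest difference in both: -0.70 (SE 0.22, limma adjusted p = 0.164) with cyclosporine A and -0.43 (SE 0.16, adjusted p = 0.421) with tacrolimus. Hspa5, the chaperone BiP, differed by -0.35 and -0.26. Ppib differed by 0.08 and -0.02 beside these, and Fkbp2 by 0.09 and -0.28. On deposited FPKM 15 of the 16 were called lower with cyclosporine A, as were Ppib and Fkbp2, beside 80.9% of all genes.

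**Figure D5:**
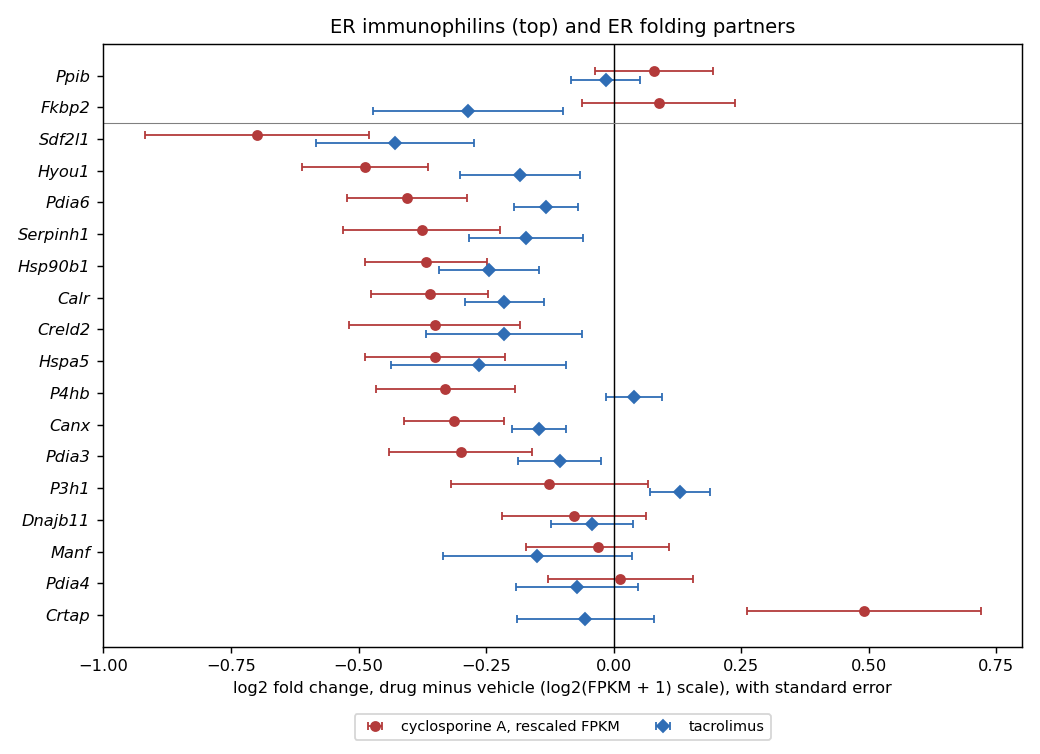
Log2 fold change against vehicle (points) with its standard error (bars) for the ER immunophilins Ppib and Fkbp2 and for 16 ER folding partners, with cyclosporine A on rescaled FPKM (red) and with tacrolimus (blue). In each comparison 14 of the 16 partners lie below the median gene, and none was called.

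The promoters of the ER members and of Hspa5 are shown for the letters of the ER stress element. By this element the unfolded protein response acts on many chaperone genes. Hspa5 holds the whole element, and Ppib and Fkbp2, like nearly all promoters, do not. Each window runs from 250 bases before to 50 after the RefSeq gene start on the GRCr8 build: Ppib at chr8:75498716-75499015, plus strand, Fkbp2 at chr1:213599557-213599856, minus strand, and Hspa5 at chr3:38452766-38453065, plus strand. Capitals in Hspa5 mark the whole element, CCAAT and CCACG with any 9 bases between them. Capitals in Ppib mark its separate parts, CCAAT and CCACG, the latter read as CGTGG on the printed strand. Capitals in Fkbp2 mark CCAAT, the part found there.
Ppib promoter: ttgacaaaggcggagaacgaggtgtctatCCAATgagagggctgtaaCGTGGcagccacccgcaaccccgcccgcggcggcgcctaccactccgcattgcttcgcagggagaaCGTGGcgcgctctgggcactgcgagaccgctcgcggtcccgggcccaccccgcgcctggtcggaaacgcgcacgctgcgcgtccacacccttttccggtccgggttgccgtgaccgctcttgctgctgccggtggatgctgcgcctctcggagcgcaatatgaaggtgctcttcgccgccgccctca
Fkbp2 promoter: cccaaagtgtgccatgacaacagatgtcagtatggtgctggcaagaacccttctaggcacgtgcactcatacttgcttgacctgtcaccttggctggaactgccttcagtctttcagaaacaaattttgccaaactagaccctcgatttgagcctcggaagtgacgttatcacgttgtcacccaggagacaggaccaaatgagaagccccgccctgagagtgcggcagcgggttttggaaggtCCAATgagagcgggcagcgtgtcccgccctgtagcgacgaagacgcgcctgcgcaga
Hspa5 promoter: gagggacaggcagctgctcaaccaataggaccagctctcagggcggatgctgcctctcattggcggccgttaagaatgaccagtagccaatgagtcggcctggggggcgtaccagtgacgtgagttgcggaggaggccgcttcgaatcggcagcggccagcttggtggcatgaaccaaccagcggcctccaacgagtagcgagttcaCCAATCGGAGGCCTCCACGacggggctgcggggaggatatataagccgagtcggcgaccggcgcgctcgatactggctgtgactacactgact
The element, searched on both strands, was in 22 of 33469 promoters (0.0657%). It was in 0 of the 10 members and in 5 of the 13 ER partners with a promoter in the table: Hspa5, Hsp90b1, Creld2, Canx and Calr. With cyclosporine A these 5 genes differed by -0.35, -0.37, -0.35, -0.31 and -0.36, and with tacrolimus by -0.26, -0.25, -0.22, -0.15 and -0.21, none of them called. The other partners, some of them with no promoter in the table, ran from -0.70 (Sdf2l1) to 0.49 (Crtap) with cyclosporine A and from -0.43 (Sdf2l1) to 0.13 (P3h1) with tacrolimus. No test compared the partners with and without the element. CCAAT alone was in 37.5% of promoters, 7 of 10 members and 11 of 13 partners. CCACG alone, which overlaps the full element, was in 31.6% of promoters, 4 of 10 members and 13 of 13 partners. A match is a description of the letters, and its absence says only that they are not in this window. The glucocorticoid response element, AGAACA and TGTTCT with any 3 bases between them, was in 5 promoters and in none of the members, Fkbp5 included.

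Among the members, 1 promoter held the heat shock element pair, GAANNTTC or TTCNNGAA, which 15.9% of promoters hold. With 1 of 10, the members were near the share over all promoters. In the Fkbp5 promoter, as in most, the letters were not found. The match was in Fkbp4, a gene known to respond to heat shock, whose promoter is shown as the only match among the members. The window is at chr4:163397869-163398168, minus strand of GRCr8, again from RefSeq, with the match in capitals.
Fkbp4 promoter: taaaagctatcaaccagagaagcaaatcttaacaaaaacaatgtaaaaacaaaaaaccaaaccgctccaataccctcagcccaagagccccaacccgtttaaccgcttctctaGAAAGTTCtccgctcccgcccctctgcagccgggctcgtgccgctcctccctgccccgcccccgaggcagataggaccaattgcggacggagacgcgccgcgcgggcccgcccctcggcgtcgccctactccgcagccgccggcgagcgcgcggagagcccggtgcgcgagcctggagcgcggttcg
Fkbp4 differed by -0.09 with cyclosporine A and -0.17 with tacrolimus, neither of them a call.

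Partners of the remaining members gave no calls on rescaled FPKM or with tacrolimus. Of the channels, receptors and mTOR that FKBP12 binds, 0 of 10 tested were called with cyclosporine A (median -0.08) and 0 of 12 with tacrolimus (-0.01); Itpr1, an ER calcium release channel, had the largest difference with cyclosporine A at -0.48 (2.44 to 2.94 against 1.45 to 1.88 rescaled FPKM, limma adjusted p = 0.0967). Of 8 mitochondrial pore genes around cyclophilin D, Ppif among them, 0 were called in either comparison (medians -0.02 and -0.03). Bsg, the cell-surface receptor of secreted cyclophilins, was 196 to 244 rescaled FPKM with saline and 107 to 179 with cyclosporine A (-0.53, adjusted p = 0.145). None of the 4 genes of its list was called in either comparison, nor any of the 6 and 7 tested Bcl2-related partners of Fkbp8. Of 4 calcineurin subunit genes tested, 0 were called in either comparison, and Ppp3ca, a catalytic subunit, differed by -0.36 with cyclosporine A (adjusted p = 0.241) and 0.09 with tacrolimus. On deposited FPKM 9 of the 10 FKBP12-bound genes, 8 of 8 mitochondrial pore genes, 2 of 4 in the Bsg list, 6 of 6 Bcl2-related genes and 4 of 4 calcineurin subunit genes were called lower with cyclosporine A, beside 80.9% of all genes.

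Other cell type markers did move in these kidneys. With tacrolimus all 3 tested distal convoluted tubule markers fell (log2 fold changes of -3.81 for Calb1, -1.24 for Slc12a3 and -0.85 for Trpm6), and summed FPKM of the 4 listed was 269.5 to 346 with vehicle and 44.7 to 73.1 with the drug; Pvalb was at 0 in every library. With cyclosporine A, 1 of 4 tested urothelium markers rose (Upk1a, log2 fold change 1.51), and the sum of the 5 listed went from 1.64 to 4.20 to 7.29 to 17.8 rescaled FPKM. On deposited FPKM 0 of these 4 were called. Calb1 (-1.85) and the thick ascending limb marker Umod (-1.36) also fell with cyclosporine A on rescaled FPKM. The other tested markers of those segments were not called: Slc12a3 (0.27), Trpm6 (-0.06), Slc12a1 (-0.95, adjusted p = 0.0511), Cldn16 (0.21) and Kcnj1 (-0.11). The proximal tubule marker Slc5a2 rose with cyclosporine A on both scales (0.94 rescaled and 0.45 deposited) from at most 0.50 to at least 0.85 rescaled FPKM, while 5 of the 6 proximal tubule markers lay below the median gene. With tacrolimus 1 of 6 adipocyte markers fell, Ucp1 (-3.33), all 6 lay below the median gene, and their sum was 86.9 to 279 FPKM with vehicle and 49.7 to 154 with the drug. The endothelial markers summed to 15.6 to 33.7 rescaled FPKM with saline and 10.9 to 21.4 with cyclosporine A; 0 of 5 tested were called, and Plvap, a protein of capillary fenestrae, differed most (-1.97, limma adjusted p = 0.0676). Of the 5 podocyte markers 4 lay above the median gene with cyclosporine A (median 0.47, Synpo 0.74 and Wt1 0.47, none called), and their sum averaged 3.88 with saline and 6.66 rescaled FPKM with the drug. The difference between the drugs was called for 7 markers: Plvap (-2.12), Umod (-1.16), Slc12a1 (-0.83), Calb1 (1.96), Upk1a (1.67), Slc5a2 (0.88) and Trpm6 (0.79). Of all genes tested, 1.63% were called for that difference, 0.609% with cyclosporine A on rescaled FPKM and 0.303% with tacrolimus. The part of these cell types in the immunophilin values was not tested.

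Across the 12 libraries of the tacrolimus table, after each group's mean was removed, Fkbp5 was most like Scnn1a, the alpha subunit of the epithelial sodium channel (r = 0.88). Scnn1a ranged from 25.8 to 35.7 FPKM with vehicle and from 22.9 to 26.1 with tacrolimus (log2 fold change -0.33, limma adjusted p = 0.106). The lowest vehicle library for both genes was replicate 1, while the highest was replicate 2 for Fkbp5 (60.0 FPKM) and replicate 5 for Scnn1a (35.7 FPKM). In the 8 libraries of the other table that r was 0.44. The next genes were LOC100362149 (0.85), LOC100364457 (0.83), Adssl1 (0.82) and Zfp143 (0.82), with r between -0.55 and 0.12 in the other table. These correlations are descriptions, and the libraries share their scaling, depth and detected genes.

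Fkbp1a was most like Akt1 (r = 0.98, and 0.90 in the cyclosporine A table), then Nr1h2 (0.98), Il11ra1 (0.98), Nans (0.97) and the member Fkbp8 (0.97, and 0.30 in the cyclosporine A table). Ppia was most like Ndufc2 (0.95) and Cox6c (0.95), which encode respiratory chain subunits, then Acyp2, Tvp23b and Sap18 (0.94 each). In the cyclosporine A table r for these 5 ran from -0.05 to 0.34. Among the members, Fkbp1a, Fkbp4, Fkbp8 and Ppif had r from 0.90 to 0.97 with one another in the tacrolimus table, and Ppid had r from -0.84 to -0.64 with those 4. In the cyclosporine A table the first 4 had r from -0.78 to 0.65 with one another.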

How the data were processed

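Bulk RNA sequencing of whole rat kidney was measured in 20 libraries, and groups were taken from the treatment labels. The authors deposited 1 table for cyclosporine A with saline vehicle and 1 for tacrolimus with DMSO/PEG vehicle, with FPKM per gene. Alignment used HISAT2 and the build was rn6, per the submitters' processing notes; the counting program, strand setting and annotation release are not given in the sources used here, so reads of antisense transcripts cannot be told apart from those of a gene. The members and gene lists were chosen with earlier results of these data known.

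Each deposited FPKM was turned back into whole fragments from the listed length and the depth (tolerance 1e-06). Of the values, 100% came out whole with the listed length for tacrolimus and 74.2% for cyclosporine A, where 4445 genes (23.5%) came out whole with a shorter length. Judged from the values, the tacrolimus FPKM follow median-of-ratios size factors. The cyclosporine A FPKM are relative to all fragments and were also divided by median-of-ratios size factors (rescaled FPKM). No library was a copy of another: chi-square over degrees of freedom for replicate pairs was at least 16.7.

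Limma 3.58.1 in R 4.3.3 compared groups on log2(FPKM + 1), with moderated variances that follow the mean; p-values were adjusted by Benjamini-Hochberg over all tested genes, and calls are at an adjusted p under 0.05. Fold changes are on that scale, which understates changes of low genes. A gene was tested if, in at least the number of libraries of the smaller group, its value reached what 10 fragments are worth in a library of median size, and all libraries together held 15 fragments. The difference between drugs was the difference of both limma estimates with Satterthwaite degrees of freedom. On simulated data with 2-fold changes (1 on the log2 scale), 89.4% were recovered at 4 against 4 and 95.5% at 6 against 6. Among those called, 3.80% and 4.52% were false. For the difference between the drugs 68.0% of 363 changed genes were recovered, with 5.73% false. The simulation gave every gene the same dispersion, whereas with cyclosporine A the coefficient of variation was 3.65% for Ppia and 38.4% for Ppic. Changes of the members on rescaled FPKM and with tacrolimus were below 1, so these rates do not give the power to call them. Ratios were tested with exact permutation tests (SciPy 1.17.1). Named beyond the members were genes called in a list (up to 4 by adjusted p), otherwise up to 2 with the largest change, and the 5 genes most correlated with Fkbp5, Ppia and Fkbp1a; other ER partners, Nr3c1, Bsg, Cwc27, Fkbp3, Fkbp9, Mt1 and the uncalled markers were named after their values were seen. Promoters are from RefSeq, on GRCr8, and were found for all 10 members. Alternatives were the pseudocount, filters, trend, robust and weighted fits, voom on recovered fragments, scaling to nuclear fragments, the mitochondrial share as covariate, a replicate block, and leaving out each library.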

Additional observations from a re-analysis of the deposited data

Results flagged for a closer look

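Of the 40 sets given by 10 members in 4 groups, 4 held a library far from the others. The rule has a nominal rate of about 1 in 20 for independent sets. These sets share libraries, and the share over all genes was not computed, so the count is not a result about immunophilins. In tacrolimus replicate 6, Ppif was 34.4 FPKM, against 25.6 to 28.8 in the other tacrolimus libraries, and Fkbp1a was 90.0 FPKM, against 74.8 to 77.9. In the same library Fkbp2 was 37.4 FPKM, against 75.9 to 87.3. In DMSO/PEG vehicle replicate 3, Fkbp2 was 118 FPKM, against 75.7 to 89.8 in the other vehicle libraries. Both libraries are among the 3 with the fewest nuclear genes detected, and whether that number accounts for these values was not tested.

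Fkbp5 lay on opposite sides of its vehicle mean with the 2 drugs, above in 4 of 4 cyclosporine A libraries and below in 6 of 6 tacrolimus libraries. Its DMSO/PEG vehicle libraries spread from 23.3 to 60.0 FPKM, and vehicle replicates 1 and 6 lay below every tacrolimus library. The share of all genes with such a split was not computed. The difference between the changes was 0.74 on the log2 scale, and the test of that difference gave a limma-based adjusted p of 0.183.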

How the results depend on the processing

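The count of immunophilins called stayed at 0 under all 18 alternatives for cyclosporine A on rescaled FPKM and all 23 for tacrolimus. On deposited FPKM the count of 9 became 0 with the mitochondrial share as covariate and 0 with scaling to nuclear fragments, and the difference between the drugs went from 0 to 9 on deposited FPKM in both tables. Leaving out single libraries gave counts of 0 to 0, 9 to 9, 0 to 0 and 0 to 0 in these comparisons, taken in the order rescaled, deposited, tacrolimus, difference. Signs that turned on rescaled FPKM were Ppia (-0.0053) and Ppif (0.035) with array weights, Ppia (-0.078), Ppic (0.13) and Ppif (0.0103) with the mitochondrial covariate, and Fkbp4 (0.00065) and Fkbp8 (0.073) with nuclear scaling. On deposited FPKM they were Ppib (0.36), Ppic (0.0033), Fkbp1a (0.11), Fkbp2 (0.32) and Fkbp5 (0.39) with the covariate, and Ppia (0.10), Ppib (0.17), Fkbp1a (0.34), Fkbp2 (0.18), Fkbp4 (0.00065), Fkbp5 (0.71) and Fkbp8 (0.073) with nuclear scaling. With tacrolimus, Fkbp1a was -0.0024 with the covariate, and without the 3 libraries with the fewest genes Ppia was 0.0037, Ppib 0.0026 and Ppif 0.0078. The difference turned on deposited FPKM for Ppia (-1.27), Ppib (-1.22), Fkbp1a (-1.05), Fkbp2 (-0.94), Fkbp4 (-1.16) and Fkbp5 (-0.24). The cause of these turns was not tested; deposited FPKM moves the median gene by construction.

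Leaving out 1 library turned signs of values near 0. With cyclosporine A on rescaled FPKM, Ppia ran from -0.0102 to 0.033, Ppif from -0.21 to 0.0705, Fkbp2 from -0.023 to 0.18 and Fkbp8 from -0.074 to 0.052. With tacrolimus, Ppib ran from -0.061 to 0.014, Ppif from -0.075 to 0.024 and Fkbp1a from -0.031 to 0.066, and for the difference Ppif ran from -0.19 to 0.091. The log2 ratios ran from 0.54 to 0.98 (Fkbp5 to Fkbp4), -0.31 to -0.15 (Ppia to Fkbp1a) and -0.14 to 0.065 (Ppib to Fkbp2) with cyclosporine A, and from -0.22 to 0.10, -0.089 to -0.032 and 0.055 to 0.33 with tacrolimus.

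Over all genes, the 82 calls with cyclosporine A on rescaled FPKM became 269 with voom, 151 with array weights, 133 at a mean FPKM of at least 1, 117 with nuclear scaling, 6 with the replicate block, 1 with no filter and 0 with the covariate. The 47 with tacrolimus became 77 with array weights. The replicate block left the members' counts at 0, 9, 0 and 0. Same-numbered libraries did not deviate together throughout (r from -0.15 to 0.21 over the 4 pairs with cyclosporine A and from -0.15 to 0.18 over the 6 with tacrolimus), and 3 of the 10 pairs correlated best with their own number, so the numbers were not taken as a pairing. Depth limits Ppid, Ppif and Fkbp5 with cyclosporine A most, at 105 to 445 fragments per library.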

Other observations

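Fkbp5 had the largest difference between the vehicles of the 9 members compared; Ppia was left out because its values rest on different lengths in the tables. It averaged 2.40 rescaled FPKM with saline vehicle and 40.1 FPKM with DMSO/PEG vehicle. The tables were normalized separately and the median gene differed by 1.38 on the log2 scale; relative to it, Fkbp5 was 2.21 higher with DMSO/PEG vehicle, and 63 of 9385 genes compared had a larger difference. Ppic was the lowest member at -0.98, followed by Fkbp2 at -0.66, and Ppif (0.62), Fkbp4 (0.61) and Fkbp1a (0.52) lay above the median gene. Of 16 entries of glucocorticoid-induced genes compared, 15 lay above the median gene, with a median of 0.89, against quartiles of -0.40 and 0.40 over all genes. Errfi1 (3.00), Pck1 (2.57), Klf9 (2.31) and Tsc22d3 (1.68) were among them, and Lcn2 (-0.51) was the exception. Vehicle and table cannot be told apart in these values, and no test was made.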
